A study of Homo sapiens with 6 samples.

Results

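Cytochrome P450 genes (symbols in CYP), UDP-glucuronosyltransferase genes (symbols in UGT1A, UGT2A and UGT2B) and 3 genes of the aryl hydrocarbon receptor, AHR, AHRR and TIPARP, were followed in A549 cells (established from a human lung adenocarcinoma; genotype label WT) that had received either Japoflavone B or DMSO. Members were taken by gene symbol alone, without CYP51A1, which gave 77 of the 61806 genes in the table. The labels give 3 libraries per group, 24 h of treatment after 24 h of seeding, and a dose of 40 without a unit. They do not say whether the libraries came from separate cultures, so the p-values cover only the spread from library to library, which may be technical. The treated libraries are titled LE-532, a code the labels leave unexplained.

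P450 enzymes are haem proteins that insert an oxygen atom into drugs, fatty acids, steroids, retinoids and vitamin D, with electrons passed on by a reductase or, in mitochondria, by ferredoxin. UDP-glucuronosyltransferases then join glucuronic acid to such products or to flavonoids, which makes them soluble for export. AHR is a ligand-activated transcription factor that pairs with ARNT. CYP1A1, CYP1B1, AHRR and TIPARP are among its best known targets, and the products of AHRR and TIPARP restrain it in turn.

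The libraries held 15298531 to 21744407 gene counts. The share of counts from mitochondrial genes was 4.36% ± 0.371 in the DMSO group and 8.43% ± 0.128 in the treated group (SD, n = 3). With those genes left out, an alternative chosen after seeing the data, all 28 tested members kept their side of the threshold. Of the epithelial markers KRT7, KRT8, KRT18, CDH1 and EPCAM, the summed level was 1144 to 1311 FPKM after DMSO and 558 to 593 FPKM after Japoflavone B (FPKM are counts per kilobase of exon, scaled to the library total), and EPCAM stood near 1 FPKM or lower. The 4 leukocyte markers summed to at most 0.12 FPKM and the 3 endothelial markers to at most 0.07 FPKM in any library. The fibroblast markers summed to 4.59 to 5.11 FPKM after DMSO and 0.49 to 0.61 FPKM after treatment, nearly all from COL1A1. The hepatocyte markers summed to 13.8 to 15.49 FPKM after DMSO and 3.34 to 3.52 FPKM after treatment, nearly all from CPS1 (4.15-fold lower), with ALB, APOA2 and TTR at or near 0. The part of either marker set in the results was not tested.

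Most members were silent or nearly so in these cells. Of the 77, 28 had enough counts to be tested, 18 had no count in any library, 19 had 1 to 10 counts over the 6 libraries and 12 had more but fell short of the filter. No member left untested exceeded 0.41 FPKM in any library. Among them were most liver drug-metabolising genes, such as CYP1A2, CYP2B6, CYP2C8, CYP2E1 and CYP3A4, the steroid hormone synthases CYP11B1, CYP11B2, CYP17A1, CYP19A1 and CYP21A2, and all 10 UGT2 genes. A gene at 0 counts in all 3 libraries of a group could still have up to 3 counts over that group.

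Of the 28 tested members, 6 were higher and 13 lower after Japoflavone B, and 9 did not pass (edgeR quasi-likelihood test, Benjamini-Hochberg adjusted over all 16082 genes tested, threshold 0.05). Over all genes tested 70% were called, 34.7% higher and 35.4% lower. The share of members called was close to that background, and nothing particular to the members is read from it. The same background applies to every list and subgroup of genes counted below, and no such count was tested against it. The median log2 fold change of the tested members was -0.28, against -0.0038 over all genes tested. The FPKM of the groups did not overlap in 20 of the 28 tested members (71.4%), the 19 called and CYP39A1, and in 71.6% of all genes tested. For each of the 19 called members the exact two-sided permutation test gave p = 0.1, the smallest that 3 against 3 allows. Fold changes below use trimmed-mean scaling and FPKM do not, so that their ratios differ slightly. Chromosome positions are on GRCh38.

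A single gene made up most of the summed P450 level of these cells. CYP24A1 (ENSG00000019186, chromosome 20, 54153446 to 54173986, minus strand), the mitochondrial enzyme that inactivates vitamin D, had 637, 621 and 573 FPKM after DMSO and 356, 326 and 348 FPKM after Japoflavone B. Every treated library was lower than every DMSO library, at a log2 fold change of -0.73 ± 0.05 (SE; edgeR adjusted p = 3.06e-13), or 1.66-fold lower. Summed over all CYP members the level was 736 ± 34.4 FPKM after DMSO and 414 ± 17.6 FPKM after Japoflavone B (SD, n = 3), a fall of 43.8%. CYP24A1 made up 82.8% of that fall and CYP1B1 17.2%. The share of CYP24A1 in the sum was 82.9% ± 0.648 and 83.0% ± 0.535 (SD, n = 3). All CYP members other than CYP24A1 and CYP1B1 together held 60.3 ± 1.73 and 60.3 ± 2.49 FPKM (SD, n = 3), with members that rose and members that fell among them. For the whole sum the exact two-sided permutation test also gave p = 0.1.

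**Figure D1:**
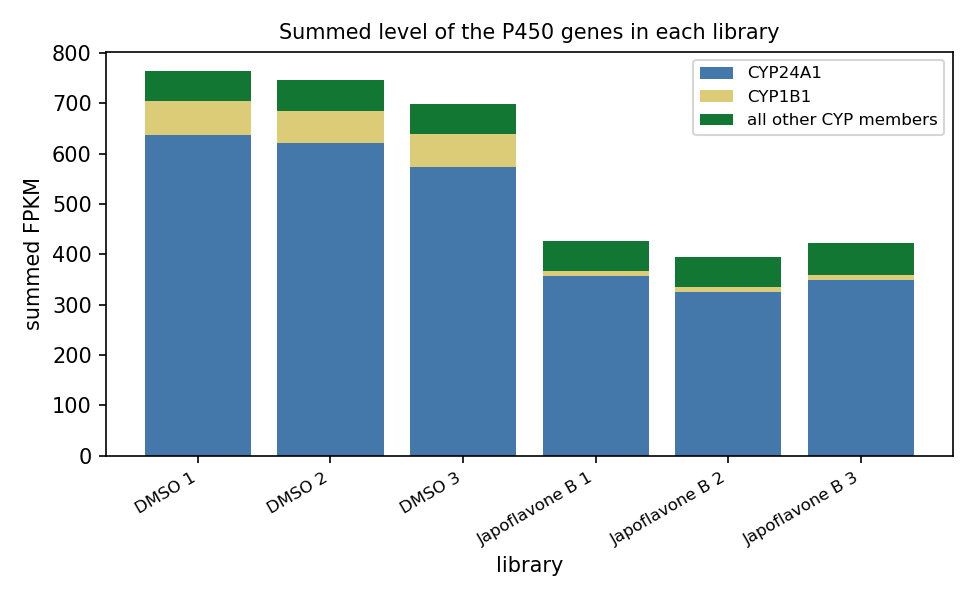
Summed FPKM of the CYP members (vertical axis) in each of the 6 libraries, stacked as CYP24A1, CYP1B1 and all other CYP members. The sum lies between 698 and 764 FPKM in the DMSO libraries and between 394 and 426 FPKM in the Japoflavone B libraries, while the top segment stays between 58.4 and 63.1 FPKM.

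**Figure D2:**
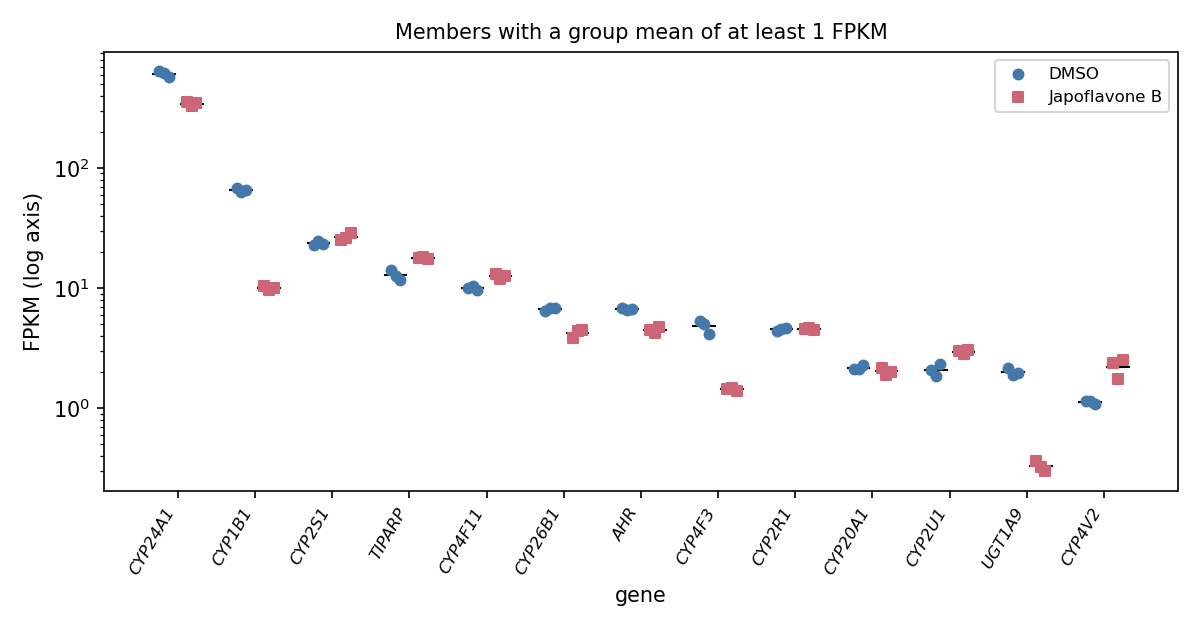
FPKM on a log axis of the 13 members with a group mean of at least 1 FPKM, each with 3 DMSO libraries (circles), 3 Japoflavone B libraries (squares) and a line at the mean. CYP24A1 stands highest in both groups, and CYP1B1, CYP4F3 and UGT1A9 show the widest gaps between groups.

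Genes of the aryl hydrocarbon receptor moved in opposite directions. AHR (ENSG00000106546, chromosome 7, 16916359 to 17346152, plus strand) had 6.82, 6.59 and 6.64 FPKM after DMSO and 4.45, 4.26 and 4.78 FPKM after Japoflavone B. It fell, with groups apart, by 0.47 on the log2 scale (SE 0.07; edgeR adjusted p = 9.80e-07). In GENCODE 29, 29.4% of the exonic bases of AHR are shared with the same-strand gene AC019117.2. How reads from those bases were counted is not given in the sources used here. CYP1B1 (ENSG00000138061, chromosome 2, 38066973 to 38109902, minus strand), which hydroxylates oestrogens and polycyclic hydrocarbons, had 67.8, 63.2 and 65.6 FPKM after DMSO and 10.3, 9.56 and 9.93 FPKM after treatment. The groups lay far apart, at 6.14-fold lower (log2 SE 0.06; edgeR adjusted p = 1.88e-24). Antisense genes, CYP1B1-AS1 among them, cover 12.9% of the CYP1B1 exonic bases, and CYP1B1-AS1 had 104 counts over the DMSO libraries against 22680 for CYP1B1.

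TIPARP (ENSG00000163659, chromosome 3, 156673235 to 156706770, plus strand), which encodes a mono-ADP-ribosyltransferase, went the other way. It had 14.2, 12.7 and 11.7 FPKM after DMSO and 17.9, 18.3 and 17.4 FPKM after Japoflavone B, and every treated library was higher. The rise was 1.49-fold (log2 SE 0.07; edgeR adjusted p = 1.09e-08). TIPARP-AS1, an antisense gene over 0.7% of the TIPARP exonic bases, had summed counts of 89 and 159. AHRR, the receptor's repressor, had summed counts of 28 in the DMSO group and 26 in the treated group, and did not pass (log2 fold change 0.11, 95% interval -0.91 to 1.13; edgeR adjusted p = 0.854).

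CYP1A1, the gene most used to read AHR activity, fell short of the filter. It had 14, 8 and 1 counts in the DMSO libraries and 0, 2 and 0 in the treated ones, so that DMSO replicate 3 lay within the treated range. The ratio of summed counts, here and below scaled by the trimmed-mean library sizes, was 9.99-fold lower with an exact 95% binomial interval of 2.47 to 87.5, which covers counting error only. It was 6.11-fold without DMSO replicate 1, 6.31-fold and 6.57-fold without Japoflavone B replicate 1 or 3, and at least 4.74-fold, against a floor of 3 counts over the group, without Japoflavone B replicate 2. CYP1A2 had no counts.

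The AHR targets TIPARP, which rose, and CYP1A1, which had fewer counts after treatment and was not tested, are shown by the letters around GCGTG, the core of the AHR-ARNT site, in the 250 bases before their first RefSeq start (GRCh38.p14). CYP1A1 held 1 match (chr15:74725571-74725595, minus strand) and TIPARP 2 (chr3:156674372-156674396 and chr3:156674438-156674462, plus strand). Each is written 5′ to 3′ with the match in capitals, as GCGTG or its complement CACGC.
CYP1A1: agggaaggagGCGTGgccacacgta
TIPARP match 1: cgagaaaggaCACGCcccctcgcgg
TIPARP match 2: aacgaacgcgCACGCgcgcgcaggg
These matches lie 52, 203 and 137 bases before the RefSeq start, in bases that GENCODE 29 counts as exon of a gene on either strand. TIPARP match 1 lies within the span of the antisense gene TIPARP-AS1. At least 1 match, on either strand and at any start of the gene, was present in 36.2% of the 27305 genes in that table and in 30.4% of the 56 members found there. The target AHRR, which did not pass, held 1 match before its first start and 2 before its second. AHR had no match, and CYP1B1 and CYP24A1 have no entry.

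Partners and further targets of AHR were split as well. Of 12 genes in the list, 5 rose, 5 fell and 2 (TBL3 and XDH) did not pass, with a median log2 fold change of 0.16. TBL3 was called higher without DMSO replicate 3 (0.25 log2, adjusted p = 0.00421). The dimer partner ARNT was 1.24-fold higher (edgeR adjusted p = 1.57e-04), a call lost as TPM (adjusted p = 0.251), and its relative ARNT2 1.44-fold lower. Of the cytosolic chaperone complex that holds AHR, HSP90AB1 was 1.23-fold higher (a call also lost as TPM, adjusted p = 0.175), while PTGES3, the co-chaperone p23, was 1.39-fold lower. Among target enzymes, ALDH3A1 fell from 473 ± 30.3 to 152 ± 2.67 FPKM and NQO1 from 631 ± 20.3 to 270 ± 1.83 FPKM (SD, n = 3). The growth factor EREG was 4.91-fold higher, CUL4B, a ubiquitin ligase scaffold, 1.56-fold lower, and NFE2L2 stood at 0.16 log2, a sign that turned to -0.05 as TPM.

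Vitamin D enzymes other than CYP24A1 were far less abundant. CYP27A1 (ENSG00000135929, chromosome 2, 218781749 to 218815293), a mitochondrial sterol 27-hydroxylase that can also 25-hydroxylate vitamin D, had 2, 2 and 1 counts after DMSO and 44, 31 and 19 after Japoflavone B. All treated libraries were above all DMSO libraries, and the ratio of summed counts was 21.6-fold higher with an exact 95% binomial interval of 8.95 to 68.2 for counting error (edgeR adjusted p = 5.43e-08). The microsomal 25-hydroxylase CYP2R1 had 4.38, 4.56 and 4.62 FPKM after DMSO and 4.53, 4.67 and 4.49 FPKM after treatment. Its groups overlapped and it did not pass, with a log2 fold change of 0.12 and a 95% interval of -0.07 to 0.30 (edgeR adjusted p = 0.262). CYP27B1, which makes the active hormone, had 0.537 ± 0.134 and 0.56 ± 0.154 FPKM (SD, n = 3; log2 interval -0.46 to 0.77) and did not pass. The vitamin D receptor VDR, which induces CYP24A1, rose from 0.427 ± 0.0252 to 1.35 ± 0.173 FPKM (SD, n = 3), 3.39-fold higher (edgeR adjusted p = 1.42e-09), in the libraries where CYP24A1 fell.

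All 3 tested retinoid P450 genes fell, as did 35.4% of all genes tested. CYP26B1 (ENSG00000003137, chromosome 2, 72129238 to 72147862), which clears retinoic acid, had 6.40, 6.86 and 6.81 FPKM after DMSO and 3.83, 4.35 and 4.43 FPKM after Japoflavone B. The groups did not overlap, at 1.49-fold lower (log2 SE 0.09; edgeR adjusted p = 1.51e-06). CYP26A1, the other main retinoic acid hydroxylase, had 17, 12 and 13 counts after DMSO and 3, 4 and 0 after treatment, a log2 fold change of -2.33 ± 0.62 (SE; edgeR adjusted p = 0.00167). Without Japoflavone B replicate 2 the CYP26A1 value was -3.03. CYP27C1, a retinoid desaturase, fell from 0.97 ± 0.0794 to 0.153 ± 0.0586 FPKM (SD, n = 3), 5.90-fold lower (edgeR adjusted p = 2.47e-09). CYP26C1 had 3 counts over the DMSO libraries and none after treatment. In GENCODE 29, 25.2% of the CYP26A1 exonic bases are shared with the same-strand gene AL358613.3.

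Retinoid and vitamin D partners were mostly lower. Of 17 listed genes 12 were tested, of which 8 fell, 3 rose and RDH11 did not pass. Their median was -0.75 log2, and 35.4% of all genes tested were called lower. RDH11 was called higher without DMSO replicate 3 (0.17 log2, adjusted p = 0.0163). ALDH1A1, which makes retinoic acid from retinal, fell from 2973 ± 82.4 to 626 ± 8.51 FPKM (SD, n = 3), 4.43-fold lower (edgeR adjusted p = 5.64e-24). Its relative ALDH1A3 was 1.87-fold lower, the retinol dehydrogenase RDH10 1.71-fold lower, the retinol importer STRA6 2.17-fold lower, and DHRS3, which returns retinal to retinol, 1.20-fold lower. The receptors were divided, with RARB 3.45-fold and RARG 1.64-fold lower and RARA 2.66-fold higher. Besides RARA and VDR, the retinoic acid carrier CRABP2 rose 2.53-fold. DHCR7, which turns the vitamin D precursor into cholesterol, was 2.06-fold lower.

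The CYP4 genes, which hydroxylate fatty acids and eicosanoids at their tail, moved both ways within a single gene cluster. CYP4F11 (ENSG00000171903, chromosome 19, 15912367 to 15934867, minus strand), which acts on long-chain and hydroxylated fatty acids, had 10.0, 10.4 and 9.70 FPKM after DMSO and 13.1, 11.9 and 12.5 FPKM after Japoflavone B. It rose 1.34-fold without overlap (log2 SE 0.07; edgeR adjusted p = 6.28e-06). CYP4F3 (ENSG00000186529, chromosome 19, 15640897 to 15662825, plus strand), the leukotriene B4 omega-hydroxylase, had 5.35, 5.02 and 4.11 FPKM after DMSO and 1.45, 1.46 and 1.40 FPKM after treatment. It fell 3.14-fold (log2 SE 0.11; edgeR adjusted p = 3.36e-13). CYP4F12 fell from 0.99 ± 0.138 to 0.273 ± 0.136 FPKM (SD, n = 3), 3.39-fold lower (edgeR adjusted p = 1.12e-06).

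These copies resemble each other. Of the 31-base words in CYP4F3 transcripts of GENCODE 29, 21.5% occur in another gene, most often CYP4F2, against 5.6% for CYP4F11 and 5.9% for CYP4F12, and how such reads were counted is not given in the sources used here. CYP4F2 itself had summed counts of 7 in the DMSO group and 18 in the treated group. CYP4V2 (chromosome 4), the gene of a fatty acid hydroxylase of the eye and other tissues, had 1.14, 1.14 and 1.09 FPKM after DMSO and 2.39, 1.74 and 2.52 FPKM after treatment. All treated libraries were higher, and the rise was 2.12-fold (log2 SE 0.12; edgeR adjusted p = 4.49e-09). CYP4A11, CYP4A22, CYP4B1, CYP4F8 and CYP4Z1 had no counts.

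**Figure D3:**
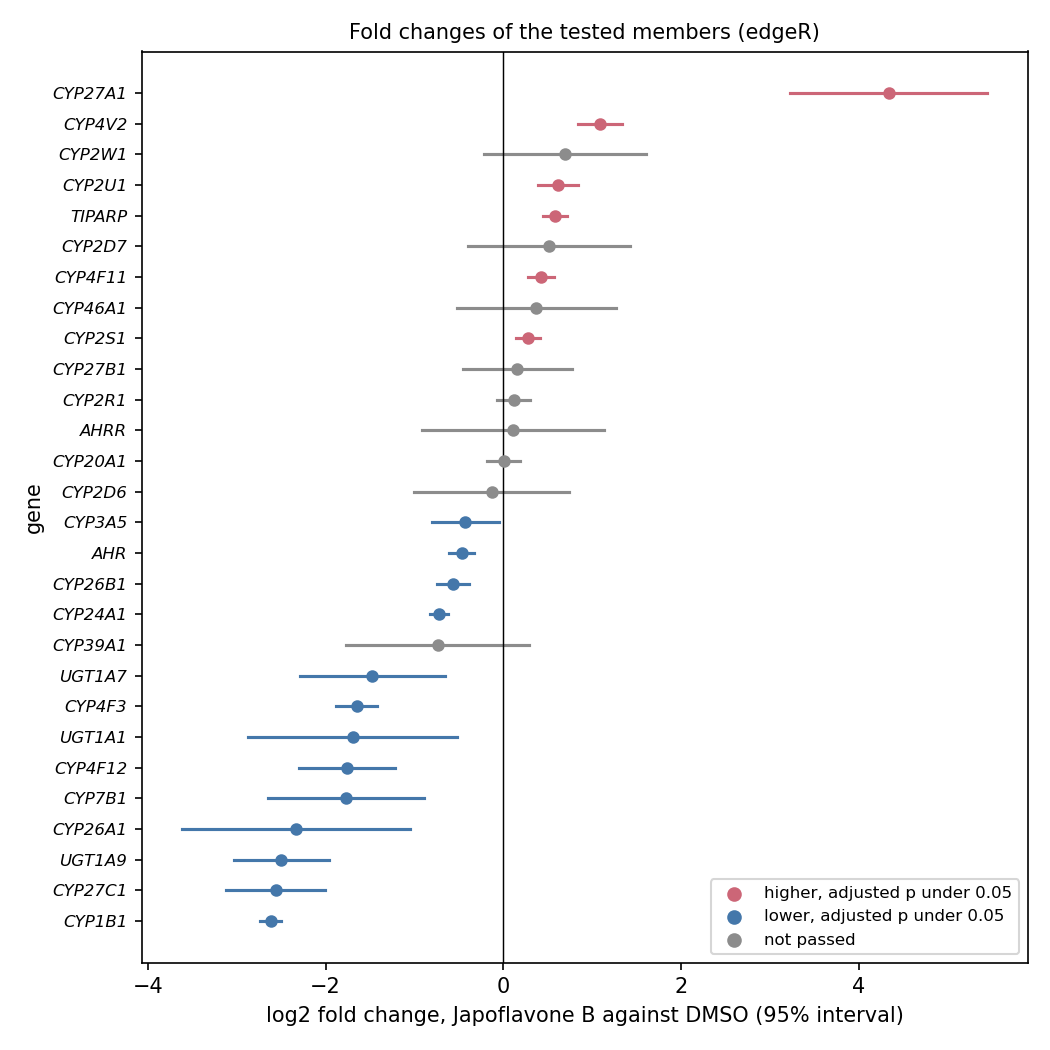
Log2 fold changes of the 28 tested members (horizontal axis, Japoflavone B against DMSO), with points for the edgeR estimate, bars for its 95% interval and colour for the call. The 13 members called lower reach -2.62 for CYP1B1, and the 6 called higher reach 4.33 for CYP27A1, whose interval runs from 3.22 to 5.44.

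In the CYP2 and CYP3 families, 6 of the 20 drug and fatty acid P450 genes other than CYP2R1 were tested, of which 2 rose, 1 fell and 3 did not pass. CYP2S1 (ENSG00000167600, chromosome 19), an extrahepatic P450 of epithelia, had 22.7, 24.6 and 23.3 FPKM after DMSO and 24.9, 25.9 and 28.9 FPKM after Japoflavone B. The groups lay close but did not overlap, at 1.21-fold higher (log2 SE 0.06; edgeR adjusted p = 4.66e-04), a call lost as TPM (adjusted p = 0.408). Its share of the summed P450 level was 3.20% ± 0.199 after DMSO and 6.43% ± 0.514 after treatment (SD, n = 3). That sum itself fell from 736 to 414 FPKM, while the CYP2S1 mean went from 23.5 to 26.6 FPKM. CYP2U1, which hydroxylates arachidonic acid, had 2.08, 1.85 and 2.33 FPKM after DMSO and 3.00, 2.83 and 3.05 FPKM after Japoflavone B. All treated libraries were higher, by 1.53-fold (log2 SE 0.11; edgeR adjusted p = 1.69e-05).

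CYP3A5, the CYP3A gene usual in lung, was the member that fell in this group, from 0.58 ± 0.0781 to 0.403 ± 0.0635 FPKM (SD, n = 3). Its call was weak (log2 fold change -0.43 ± 0.18, SE; edgeR adjusted p = 0.0395) and was lost without DMSO replicate 1 or 2 (adjusted p = 0.111 and 0.122), without Japoflavone B replicate 3 (0.190), with DESeq2 (0.0771) and with limma on log2(FPKM + 0.1) (0.0555). CYP2D6 and CYP2D7, neighbours of which 45.8% and 46.8% of 31-base words occur in other genes, had summed counts of 41 and 31 in the DMSO group and 32 and 39 in the treated group. CYP2W1 had 35 and 50 counts, and these 3 did not pass (95% log2 intervals -1.01 to 0.74, -0.40 to 1.42 and -0.22 to 1.61). CYP20A1, a P450 with no settled substrate, had 2.13, 2.10 and 2.30 FPKM after DMSO and 2.17, 1.89 and 2.01 FPKM after treatment. Its groups overlapped and its log2 fold change was 0.0029 with a 95% interval of -0.18 to 0.19 (edgeR adjusted p = 0.978).

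Of the sterol and steroid P450 genes, CYP7B1, an oxysterol 7-alpha-hydroxylase, was the tested member that fell. Its summed counts were 79 in the DMSO group and 20 in the treated group, 3.42-fold lower (log2 SE 0.43; edgeR adjusted p = 5.84e-04). CYP39A1, an oxysterol hydroxylase, with 31 and 16 counts, and the brain cholesterol hydroxylase CYP46A1, with 38 and 43, did not pass (edgeR adjusted p = 0.191 and 0.454). CYP39A1 was called lower by limma on log2 of FPKM + 1, FPKM + 0.1 and TPM + 1 (adjusted p = 0.0489, 0.0258 and 0.0208). CYP11A1, which starts steroid synthesis, had 20 and 8 counts and was not tested. Among enzymes that share substrates with these P450 genes, 10 of 18 were tested, of which 3 rose, 5 fell and CYP51A1 and PTGS1 did not pass (median -0.39 log2). Those that rose were ALOX5, a leukotriene-forming lipoxygenase at 0.0167 ± 0.0208 and 1.04 ± 0.14 FPKM (SD, n = 3), PTGS2 (1.41-fold), a prostaglandin synthase, and the sterol carrier gene STARD3 (1.83-fold). The ALOX5 log2 fold change was 5.78, and 6.90 without DMSO replicate 2. Those that fell were the thromboxane synthase TBXAS1, a P450 outside the CYP symbols (1.88-fold), NR5A2, a nuclear receptor of bile acid and steroid genes (2.81-fold), and HSD3B7, ACOX2 and SLC27A5 of bile acid synthesis (3.05-fold, 2.64-fold and 1.54-fold).

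All 3 tested UGT1A genes fell, where 35.4% of all genes tested were called lower. UGT1A9 (ENSG00000241119, chromosome 2, 233671898 to 233773300, plus strand), which glucuronidates phenols and flavonoids, had 2.15, 1.9 and 1.96 FPKM, or 106, 98 and 71 counts, after DMSO. After Japoflavone B it had 0.36, 0.32 and 0.30 FPKM, or 17, 12 and 13 counts. The groups lay far apart, at 5.65-fold lower (log2 SE 0.26; edgeR adjusted p = 1.98e-09). UGT1A7 (233681901 to 233773300), a glucuronidating enzyme found outside the liver, had 40, 47 and 17 counts after DMSO and 17, 4 and 11 after treatment. Its log2 fold change was -1.48 ± 0.40 (SE; edgeR adjusted p = 0.00169). UGT1A1, which conjugates bilirubin, had 21, 13 and 18 counts after DMSO and 4, 0 and 10 after treatment, a log2 fold change of -1.70 ± 0.57 (SE; edgeR adjusted p = 0.0101). That of UGT1A1 was -1.20 without Japoflavone B replicate 2, where it no longer passed (adjusted p = 0.0544), and -2.86 without Japoflavone B replicate 3.

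The UGT1A genes are alternative first exons joined to common last exons, and how reads in those last exons were counted is not given in the sources used here. In GENCODE 29, 61.2% of the exonic bases of UGT1A9, 49.9% of UGT1A1 and 40.6% of UGT1A7 belong to another UGT1A gene as well. In addition, 75.9% of the 31-base words of UGT1A9 occur in other genes, most often UGT1A8. Whether the 3 values are independent measurements is therefore uncertain, as are their levels per length and the split of reads between these genes. Over all 9 UGT1A genes the counts were 176, 165 and 110 after DMSO and 39, 19 and 34 after Japoflavone B. All treated libraries were below all DMSO libraries. UGT1A6, a phenol-conjugating enzyme, had 9, 5 and 4 counts after DMSO and 1, 3 and 0 after treatment and was not tested; the ratio was 3.91-fold lower (exact 95% binomial interval 1.29 to 15.9), 11.1-fold without Japoflavone B replicate 2 and 2.57-fold without Japoflavone B replicate 3. UGT1A3, UGT1A4 and UGT1A10 had no counts, and UGT1A5 and UGT1A8 had 1 each.

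UGT1A9 and UGT1A7, which lie side by side and both fell, are shown by the bases before their RefSeq starts that are in no GENCODE 29 exon, 205 and 250 bases long (GRCh38.p14, chr2:233671648-233671852 and chr2:233681651-233681900, plus strand, 5′ to 3′). Capitals mark CACGC, the complement of GCGTG.
UGT1A9: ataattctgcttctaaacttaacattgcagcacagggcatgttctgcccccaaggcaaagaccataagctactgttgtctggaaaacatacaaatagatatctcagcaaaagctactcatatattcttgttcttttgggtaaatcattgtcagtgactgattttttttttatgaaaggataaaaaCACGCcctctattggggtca
UGT1A7: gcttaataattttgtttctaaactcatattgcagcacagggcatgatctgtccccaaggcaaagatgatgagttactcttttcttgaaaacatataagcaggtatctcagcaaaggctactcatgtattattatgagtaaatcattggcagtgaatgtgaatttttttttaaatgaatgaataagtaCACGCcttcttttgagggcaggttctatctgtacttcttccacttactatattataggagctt
Each held 1 match, and neither held TGACNNNGC, the core of the NRF2 site, which 13.2% of genes and 14.3% of the members hold. The nuclear receptor core motifs AGGTCA and AGTTCA, also absent from both windows, were present in 32.1% and 19.6% of the members and in 14.6% and 10.6% of all genes. TGACNNNGC and the complement of AGGTCA can overlap. UGT1A1, which also fell, held no GCGTG and 2 AGTTCA in the 250 bases before its start. Of the untested UGT1A genes, UGT1A4, UGT1A6 and UGT1A8 held GCGTG there, and UGT1A3 and UGT1A5 did not. A match is a description of these letters and not a measured site.

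Among UGT2 genes, UGT2B11, a steroid and fatty acid conjugating enzyme, had the most counts. It had 20, 4 and 8 after DMSO and none in the treated libraries, at least 9.27-fold lower against a floor of 3 counts over the treated group, while the exact 95% binomial interval of the ratio began at 7.11-fold. Most of its counts came from DMSO replicate 1, without which the bound was 5.43-fold, and without Japoflavone B replicate 1 or 3 it was 5.85-fold and 6.10-fold. Of its 31-base words 60.2% occur in other genes, most often UGT2B28. All UGT2 genes together had 30, 12 and 14 counts after DMSO and 3, 0 and 2 after Japoflavone B. In the opposite direction, CYP3A43, a little-expressed CYP3A gene, had 1, 2 and 0 against 7, 2 and 8 counts, a ratio of 6.52 (exact 95% binomial interval 1.89 to 34.7), and its groups did not overlap in FPKM. Without DMSO replicate 2 the ratio was 12.2. CYP2A6, CYP2F1, CYP2J2 and CYP3A4, drug and fatty acid P450 genes of liver, airway and heart, had summed counts of 21, 28, 18 and 7 in the DMSO group and 6, 17, 19 and 14 in the treated group, and were not tested. When no filter was applied, UGT2B11 and CYP1A1 passed as lower (edgeR adjusted p = 1.05e-05 and 0.0132) and CYP3A43 as higher (0.0486).

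**Figure D4:**
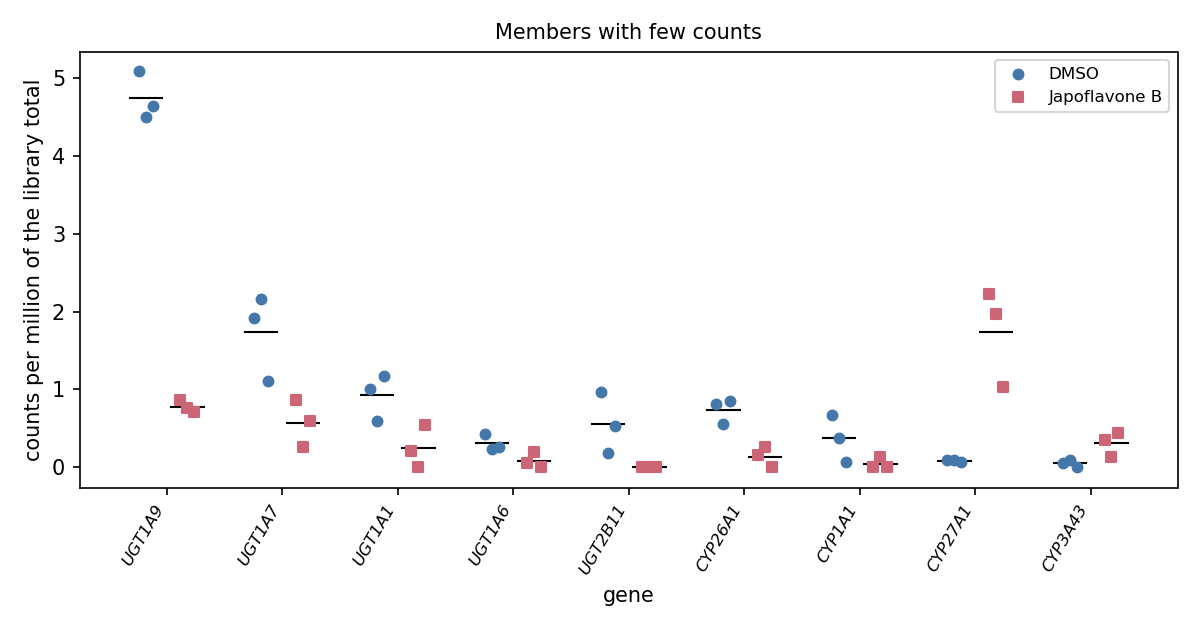
Counts scaled to the library total (CPM, vertical axis) for 9 members with few counts, chosen after their values were seen, in 3 DMSO (circles) and 3 Japoflavone B libraries (squares), with a line at each mean. UGT1A9, with 71 to 106 counts per DMSO library, lies apart from its treated libraries, whereas the CYP1A1 groups overlap.

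Genes of the proteins that feed electrons to P450 enzymes went both ways. Of 10 listed genes 5 fell, 3 rose and 2 did not pass (median -0.31 log2). POR, the reductase of microsomal P450 enzymes, fell from 22.7 ± 1.41 to 14.8 ± 0.275 FPKM (SD, n = 3), 1.43-fold lower, and cytochrome b5 genes CYB5A and CYB5B were 2.60-fold and 2.17-fold lower. FDXR, the reductase at the head of the mitochondrial chain that serves CYP24A1, CYP27A1 and CYP27B1, rose from 16.3 ± 2.34 to 82.9 ± 4.77 FPKM (SD, n = 3), 5.49-fold higher (log2 SE 0.07; edgeR adjusted p = 3.37e-21). The ferredoxins FDX1 and FDX2 did not pass (log2 fold change 0.19 and -0.47; edgeR adjusted p = 0.0654 and 0.155). FDX1 was called higher without DMSO replicate 3 (0.29 log2, adjusted p = 0.00729), and FDX2 was called lower as FPKM with either pseudocount and as TPM (adjusted p = 0.0212 to 0.0451). The haem-binding P450 partner PGRMC2 was 1.65-fold lower. PGRMC1 stood at -0.15 log2 (edgeR adjusted p = 0.0308), a call lost without DMSO replicate 3, where the value was -0.08 (0.248), without Japoflavone B replicate 1 or 3 (0.140 and 0.123) and with DESeq2 (0.0580). The b5 reductases CYB5R1 and CYB5R3 rose, by 2.11-fold and 1.17-fold, the call of CYB5R3 being lost in the 4 alternatives scaled by library totals, FPKM or TPM (adjusted p = 0.0646 to 0.878).

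All 8 haem synthesis genes passed, 4 in each direction (median 0.12 log2), where 70% of all genes tested were called. ALAS1, the first and rate-limiting step, rose 1.43-fold, and ALAD and CPOX rose 1.64-fold and 1.87-fold. FECH, which inserts the iron, fell 1.48-fold, and UROS, UROD and PPOX fell 1.21-fold, 1.22-fold and 1.21-fold. The UROD and PPOX calls were lost in several fits that left out a single library. For UROD these were without DMSO replicate 2 or 3 and without Japoflavone B replicate 1 or 2 (adjusted p = 0.0537 to 0.0879), and for PPOX without DMSO replicate 2 or 3 and without Japoflavone B replicate 2 or 3 (0.0562 to 0.124).

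Among listed regulators linked to P450 and UGT genes, most but not all of them transcription factors, more fell than rose. Of 20 listed regulators 17 were tested, of which 9 fell, 5 rose and 3 did not pass, with a median of -0.45 log2. Lower calls made up 35.4% of all genes tested and higher calls 34.7%. HNF4A fell from 2.72 ± 0.115 to 0.643 ± 0.101 FPKM (SD, n = 3), 3.95-fold lower (edgeR adjusted p = 7.62e-15), and HNF4G and FOXA1 were 5.89-fold and 2.48-fold lower. FOXA2, CEBPA, PPARGC1A and the NRF2 inhibitor KEAP1 were 1.19-fold, 1.61-fold, 3.10-fold and 2.09-fold lower. Those that rose were CEBPB (1.44-fold), PPARA (1.69-fold), RXRB (1.22-fold), RXRA (0.21 log2) and NR1I3, the receptor CAR, at 0.06 ± 0.0557 and 0.337 ± 0.191 FPKM (SD, n = 3). The NR1I3 log2 fold change was 2.38, and 3.04 without DMSO replicate 2. RXRA and RXRB lost their calls in the 4 alternatives scaled by library totals, FPKM or TPM, and RXRA stood at -0.0067 as TPM. The pregnane receptor NR1I2 and NR0B2 and NR1H4 had too few counts to be tested. NR3C1, the glucocorticoid receptor, NR1H3 and FOXA3 did not pass (edgeR adjusted p = 0.0622, 0.638 and 0.120). NR3C1 was called lower in 9 alternatives, at -0.32 to -0.12 log2, among them the fits without DMSO replicate 2 or 3 (adjusted p = 0.0449 and 0.0261). FOXA3 was called lower as TPM (adjusted p = 0.0392) and without Japoflavone B replicate 1 (-2.71 log2, adjusted p = 0.00464).

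Genes around glucuronidation went both ways. Of 10 listed genes 8 were tested, with 3 lower, 2 higher and 3 that did not pass (median -0.11 log2). UGDH, which makes UDP-glucuronic acid, fell from 199 ± 4.19 to 103 ± 1.76 FPKM (SD, n = 3), 1.79-fold lower (edgeR adjusted p = 4.20e-15). UGP2, which makes its precursor UDP-glucose, was 1.15-fold lower, and UXS1, which turns UDP-glucuronic acid into UDP-xylose, 1.39-fold higher. The solute carrier genes SLC35B1 and SLC35D1 and the ceramide enzyme UGT8 did not pass (log2 fold change 0.02, -0.0071 and -0.38). As TPM, SLC35B1 and UGT8 were called lower (-0.19 and -0.36). GUSB, the lysosomal glucuronidase, stood at 0.20 log2 (edgeR adjusted p = 0.0143), a call lost without Japoflavone B replicate 1 (0.125) and in 5 other alternatives. GUSBP11, its pseudogene, stood at -0.53 log2 (edgeR adjusted p = 0.0432), a call lost in 7 alternatives (0.0584 to 0.191).

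Other conjugating and hydrolysing enzymes were mostly lower. Of 38 listed, 25 were tested, of which 19 fell, 3 rose and 3 did not pass. Their median was -0.75 log2, and of all genes tested 35.4% were called lower and 34.7% higher. By level, GSTP1, the main glutathione transferase of these cells, fell from 231 ± 15.3 to 133 ± 5.73 FPKM (SD, n = 3), MGST1, a membrane-bound one, was 1.47-fold lower, and EPHX1, the epoxide hydrolase, had 119 ± 2.8 and 120 ± 3.23 FPKM and did not pass (edgeR adjusted p = 0.0541). EPHX1 stood at 0.11 log2, was called higher with DESeq2 and without mitochondrial genes (adjusted p = 0.0406 and 0.0473), and was called lower, at -0.11, as TPM (adjusted p = 0.0299). Among the genes that rose were CES2 and GSTO2 (1.47-fold and 3.65-fold). GSTZ1 and GSTM2 did not pass, but GSTM2 was called lower without Japoflavone B replicate 1 (-1.32 log2, adjusted p = 0.0443). Lower calls of MGST3, TPMT, HNMT and FMO4 were each lost in at least 1 fit that left out a library (adjusted p = 0.0506 to 0.174, 0.0609 to 0.0831, 0.0825 to 0.102 and 0.154 to 0.270).

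**Figure D5:**
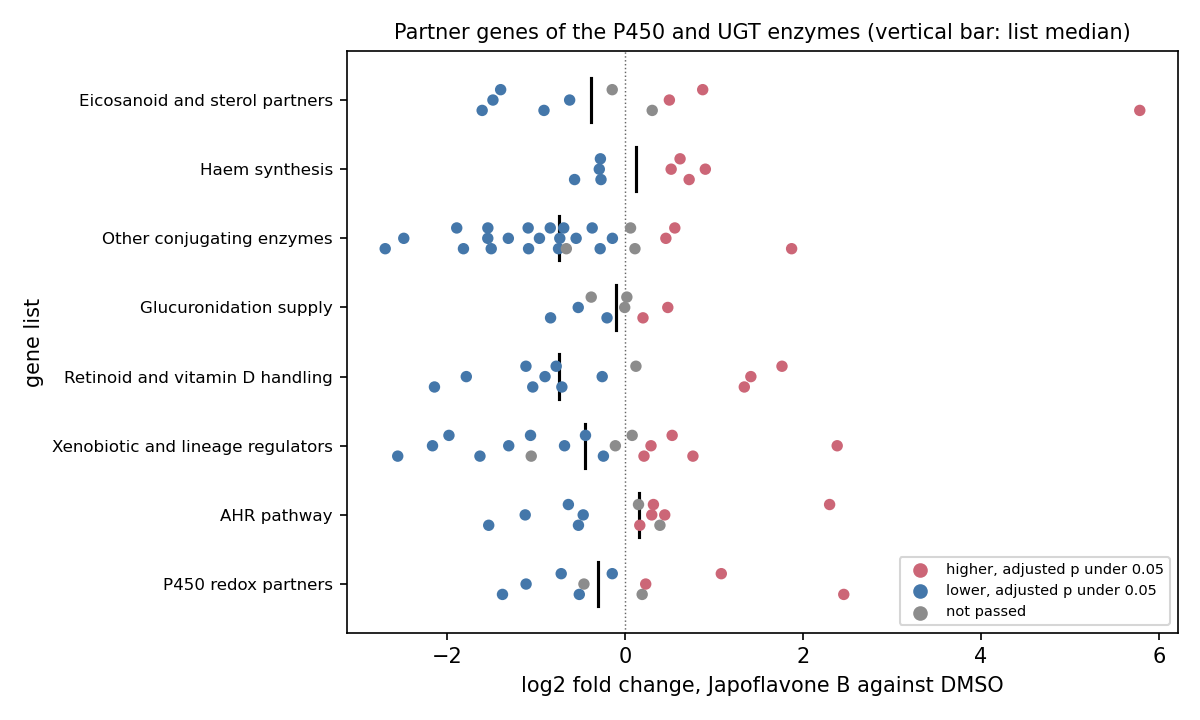
Log2 fold changes (horizontal axis, Japoflavone B against DMSO) of the tested genes in 8 lists of partners, with colour for the call and a vertical bar at each list median. The medians run from -0.75 to 0.16, and the lists hold genes on both sides of zero.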

How the data were processed

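Poly(A) RNA of A549 cells was sequenced after DMSO or Japoflavone B, 3 libraries each, grouped by the treatment labels. The authors deposited whole-number counts per Ensembl gene and FPKM per library; FPKM computed anew from counts, totals and the deposited gene sizes (bases) were within 0.005 of theirs. Tools in the submitters' processing notes were HISAT2 2.0.1, cutadapt 1.9.1, DESeq2 and HTSeq 0.6.1, with build GRCh38; annotation, strand setting and treatment of shared reads are not given in the sources used here.

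Counts were filtered (filterByExpr, minimum count 10, minimum total 15; 16082 genes), scaled by trimmed means and fitted with edgeR 4.0.16 in R 4.3.3, with group as the single term. The script was tested on simulated data. Alternatives used DESeq2 1.42.0, limma 3.58.1, other scalings and filters, and left-out libraries; leaving out libraries from ratios of summed counts was added after seeing the data. Depth was 15298531 to 21744407 counts; binomial intervals (exact, 95%) and floors of 3 counts cover counting error only. Shared exons and words of 31 bases came from GENCODE 29, promoters from RefSeq (56 of 77 members matched). Members and lists were chosen with earlier results of these data known. Named were all tested members, with every library at 1 FPKM or more in the higher group, untested members with 10 or more counts in a group, and the 3 most abundant genes of each list; others were named after their values were seen. Same-numbered replicates did not deviate together (r = 0.0134, -0.00417 and -0.0446). Some genes of the members and lists are counted in the totals but not reported here by name.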

Additional observations from a re-analysis of the deposited data

How the results depend on the processing

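The 28 tested members gave 459 values over 17 alternatives, of which 449 kept their side of the threshold. Another 7 lost the call (CYP3A5 5 times, CYP2S1 and UGT1A1 once each) and 3 gained one (CYP39A1). No value called in the main fit or in the alternative changed sign. Signs of values called in neither were not compared, and CYP20A1 went from 0.0029 to -0.011 log2 with upper-quartile scaling. The count of members lower was 13 and became 5 with a mean of at least 2 FPKM as the filter, where 11 members were tested. With each library left out in turn, 6 members were higher each time and 12 to 13 lower. With no filter 8 were higher and 15 lower. The replicate number as a block (replicate block) gave 6 higher and 13 lower; since the numbers share only a label, nothing is read from it. Library totals alone moved the median gene by -0.10 log2 and TPM by -0.21, and the share of higher calls among all genes from 49.5% to 42.4% and 35.0%. As TPM, NFE2L2 turned to -0.050, RXRA to -0.0067, SLC35B1 to -0.19, GUSB to -0.019 and EPHX1 to -0.11 log2; the cause was not tested. Log2(FPKM + 1) understates changes of members under 1 FPKM. Depth limits the 49 untested members and the UGT1A genes, which rest on few counts.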
